A study of Mus musculus with 20 samples.

Results

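The respiratory chain genes analysed here were the genes of the deposited expression table whose mouse symbol begins with *Nduf* (complex I subunits and assembly factors), *Uqcr* (complex III) or *Cox4* to *Cox8* (complex IV), or is *Sdha*, *Sdhb*, *Sdhc* or *Sdhd* (complex II), together with the protein genes of the mitochondrial chromosome. They were 95 of the 25869 genes in the table, 82 nuclear and 13 mitochondrially encoded. The nuclear genes comprised 7 core subunits, 36 accessory subunits and 8 assembly factors of complex I, 4 genes of complex II, 9 of complex III and 18 of complex IV. Of the 82, 4 are pseudogenes that carry these names. The rule uses names and no measured value, and it was set with earlier results of these data known.

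The study built mice that carry CRISPRa machinery (dCas9-VP64 with the p65 and HSF1 activators, called *dCas9a-SAM KI/+*) in 1 *Rosa26* allele and used an sgRNA to raise *Bcl-2* from its own locus. RNA was sequenced from 20 libraries. The 10 MEF libraries, from fibroblasts of mouse embryos, were 2 WT, 2 *dCas9a-SAM KI/+* with no sgRNA, 2 *dCas9a-SAM KI/+* with a non-targeting sgRNA (sgNT) and 4 *dCas9a-SAM KI/+* with sg*Bcl-2*. The titles place the 8 *dCas9a-SAM KI/+* libraries in 2 MEF lines, each with 1 no-sgRNA, 1 sgNT and 2 sg*Bcl-2* libraries. The 6 lymphoma lines were *Eµ-Myc/dCas9a-SAM KI/+*/sg*Bcl-2*, in which the immunoglobulin heavy chain enhancer drives *Myc* in the B lineage. They were 4 IgM-positive and 2 IgM-negative lines, numbered here within each group in the order of the sample list, and each came from 1 mouse reconstituted with transduced foetal liver progenitors. The 2 primary tumours were IgM-positive lymphomas of the same genotype. The 2 preB-ALL libraries were BCR-ABL1 (p190T/+) leukaemias grown with IL7, titled P190CreERLSLErg and P190RagCreErg. These titles name *Erg* and differ in their Cre and *Erg* parts, so the 2 leukaemias may not share the rest of their genotype. The labels give no treatment for any group. The cassette is driven by the CAG promoter in cells of every kind. Replicates are separate lines or libraries. For the 2 sg*Bcl-2* libraries of each MEF line nothing says that they were separate cultures, so that part of the spread may be technical.

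The respiratory chain is a set of protein complexes in the inner mitochondrial membrane. Complexes I and II pass electrons from NADH and succinate to ubiquinone, complex III passes them on to cytochrome c, and complex IV hands them to oxygen. Complexes I, III and IV pump protons that ATP synthase uses to make ATP. Complex II is encoded wholly in the nucleus, whereas the other complexes mix nuclear subunits with subunits made from mitochondrial DNA. Several nuclear subunits have a second form used in particular tissues or at low oxygen, such as *Cox4i2* beside *Cox4i1*. *Nrf1*, the ETS factor GABP and *Yy1* are known regulators of nuclear respiratory chain genes.

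Reads counted on genes ranged from 12474885 to 26678417 per library, with the preB-ALL libraries lowest. B cell markers were found in every lymphoma, tumour and preB-ALL library (10 or 11 of 11 markers above 1 CPM) and fibroblast markers in every MEF library (11 or 12 of 12). Some of these libraries stood apart. The preB-ALL libraries were made with another RNA kit and sequenced in another run, so that the run cannot be told apart from the tumour type. Their summed fibroblast markers were 5858 and 2517 CPM against 5.80 to 88.3 CPM in the lymphoma lines. Of these sums *Fn1* made up 2851 and 1090 CPM. Not all markers of the list were higher in preB-ALL. *Dcn* was at 0, *Lum* at most 0.0668 CPM, and *Thy1* at 0.601 and 2.40 CPM against 0.195 to 49.6 CPM in the lines. All mitochondrial genes stand at 0 in the table for preB-ALL, and they are not compared there. The second WT MEF library stood apart, with 380 CPM of summed striated muscle markers against 44.6 to 140 CPM in the other MEF libraries, 210 CPM of myeloid markers against 4.86 to 8.77 CPM, and 8493 CPM of fibroblast markers against 18411 to 25713 CPM. *Bcl2*, the targeted gene, had 46.8 to 71.8 CPM in the sg*Bcl-2* MEFs and 13.4 and 13.7 CPM with sgNT. CPM (counts per 1000000 reads) are given without a scaling factor, and differences are log2 fold changes of TMM-scaled CPM with 0.1 added, tested with limma and called at an adjusted p under 0.05. In bulk RNA, fewer cells of a type and less RNA per cell cannot be told apart.

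Promoter sequence (RefSeq, GRCm38.p6) was present for 62 of the 82 nuclear members. In windows from 250 bases before to 50 bases after the start, the NRF1 core GCATGCGC or its reverse complement lay in 14.1% of the 64 windows of members and in 2.71% of all 32851 windows. The ETS core CCGGAAG was in 20.3% and 8.86%, the YY1 letters AAGATGGC in 12.5% and 2.75%, the E-box CACGTG in 4.69% and 7.15%, and ACGTG, which is contained in the E-box, in 20.3% and 19.6%. Both strands were searched. These are matches of letters and not sites of binding. The promoters of 3 genes described below are shown because *Ndufaf4* was the complex I assembly factor with the largest fold between lymphoma lines and MEFs, and because *Cox6a1* and *Ndufs3* were called higher in the lymphoma lines than in both other cell types. Against preB-ALL both calls were lost with no scaling factor or without the second preB-ALL library, and against MEFs that of *Cox6a1* was lost with DESeq2 or RLE scaling. Only the 250 bases before the start are printed, 5′ to 3′ on the gene's strand, with capitals for matches to the NRF1 or ETS letters.
Ndufaf4, chr4:24897833-24898082, + strand: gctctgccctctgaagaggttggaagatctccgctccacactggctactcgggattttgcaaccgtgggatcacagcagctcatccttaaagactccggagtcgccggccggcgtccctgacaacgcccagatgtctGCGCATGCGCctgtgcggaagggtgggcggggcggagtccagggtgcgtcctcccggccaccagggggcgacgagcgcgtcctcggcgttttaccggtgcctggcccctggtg
Cox6a1, chr5:115348959-115349208, - strand: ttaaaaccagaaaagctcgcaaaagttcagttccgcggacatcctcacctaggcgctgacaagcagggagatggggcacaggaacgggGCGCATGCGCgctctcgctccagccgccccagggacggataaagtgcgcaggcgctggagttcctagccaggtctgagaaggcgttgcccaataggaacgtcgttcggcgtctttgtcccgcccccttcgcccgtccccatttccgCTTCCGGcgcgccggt
Ndufs3, chr2:90904722-90904971, - strand: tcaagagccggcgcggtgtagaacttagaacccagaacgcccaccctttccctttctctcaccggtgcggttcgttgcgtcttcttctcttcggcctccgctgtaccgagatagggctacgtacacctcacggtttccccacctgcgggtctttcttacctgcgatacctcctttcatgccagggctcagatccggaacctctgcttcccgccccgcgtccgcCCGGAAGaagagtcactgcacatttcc
In *Ndufaf4* and *Cox6a1* the capital run of 10 bases holds the NRF1 letters once on each strand, starting 113 and 162 bases before the gene. The ETS letters start 16 bases before *Cox6a1* and 27 bases before *Ndufs3*.

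Transcripts of the 13 mitochondrially encoded protein genes took a larger share of the reads in lymphoma than in MEFs. Their share was 2.51% ± 0.172 (SD, n = 4) in sg*Bcl-2* MEFs and 6.24% ± 0.734 (SD, n = 6) in lymphoma lines. By line it was 6.51%, 5.11%, 6.09% and 5.77% in IgM-positive lines 1 to 4 and 6.98% in both IgM-negative lines. The tumours had 7.71% and 8.96%, and the 10 MEF libraries lay between 2.10% and 2.75%, so that no lymphoma library overlapped a MEF library. Summed over the 82 nuclear members, CPM ran from 5992 to 7701 in lines, 7833 and 6458 in the tumours, 4010 to 5349 in MEFs, and 7604 and 8143 in preB-ALL. The preB-ALL sums have no mitochondrial reads in their total.

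**Figure D1:**
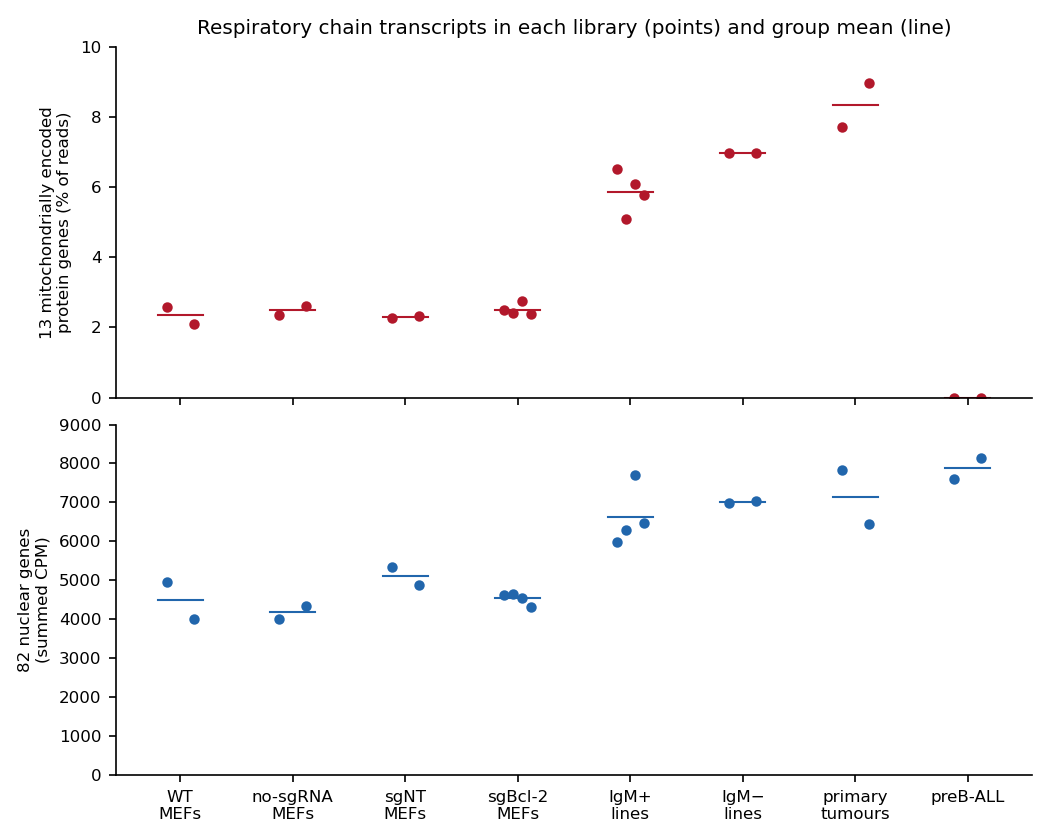
Share of reads on the 13 mitochondrially encoded protein genes (top, percent) and summed CPM of the 82 nuclear respiratory chain genes (bottom) in each of the 20 libraries, with a line at each group's mean. Every lymphoma line and tumour lies at or above 5.11% and every MEF library at or below 2.75% in the top panel, and the preB-ALL libraries are listed at 0 there.

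The lymphoma lines and the sg*Bcl-2* MEFs both carry the cassette and the *Bcl-2* sgRNA, and their comparison sets B lymphoma cells against fibroblasts. Members were mostly higher in the lymphoma lines: 62 of the 89 tested members rose and 8 fell. Over all 14620 genes tested, 81.3% were called, 36.3% higher and 45.0% lower, so the share of members called was near that of all genes while their direction leaned to higher. The median log2 difference was 0.64 for the members and -0.27 for all genes. With RLE scaling the median of all genes moved to -0.46, and with no scaling factor to -0.10.

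All 13 mitochondrially encoded members rose, by 0.57 to 1.57 log2 with a median of 1.18, and each remained called in every alternative whose fit held mitochondrial genes. *ND3*, a complex I subunit, had 176, 174, 166 and 167 CPM in the sg*Bcl-2* MEFs and 583, 511, 616, 501, 659 and 603 CPM in the lines, the IgM-positive lines first, an order kept below. The groups did not overlap (log2 fold change 1.57, SE 0.103, limma adjusted p = 1.18e-07). *ND1*, another complex I subunit, had 2131 to 2723 CPM in these MEFs with a median of 2294, and 6706 to 8171 CPM in the lines with a median of 7611 (1.49, SE 0.126, limma adjusted p = 9.74e-07). *COX1*, the catalytic subunit of complex IV, had 6938 ± 387 CPM (SD, n = 4) in MEFs and 16425 ± 3050 CPM (SD, n = 6) in lines (1.04, SE 0.198, limma adjusted p = 0.000574). *ND6*, which lies on the opposite DNA strand from the other protein genes, showed the smallest difference of the 13 at 0.57 (SE 0.0999, limma adjusted p = 0.000327). Whether reads were counted by strand is not stated, so reads of *ND6* and of the transcripts that overlap it cannot be told apart.

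The balance among the mitochondrial transcripts also differed. *ND1* made up 10.7% to 13.1% of mitochondrial protein-gene reads in the lines and 8.99% to 9.90% in sg*Bcl-2* MEFs. *ND4* made up 5.53% to 8.05% in the lines and 8.32% to 8.73% in these MEFs. *COX1* took 22.8% to 29.4% and 26.6% to 29.7%, with overlap. Per kilobase of exon, *COX2*, *COX1* and *ATP6* had the highest levels in lymphoma lines (10955, 10631 and 8443 RPKM), and *COX1*, *COX2* and *ATP6* in sg*Bcl-2* MEFs (4491, 3763 and 3084 RPKM). In the lines, *COX2* and *COX1* did not differ beyond their SDs of 1460 and 1974 RPKM.

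**Figure D2:**
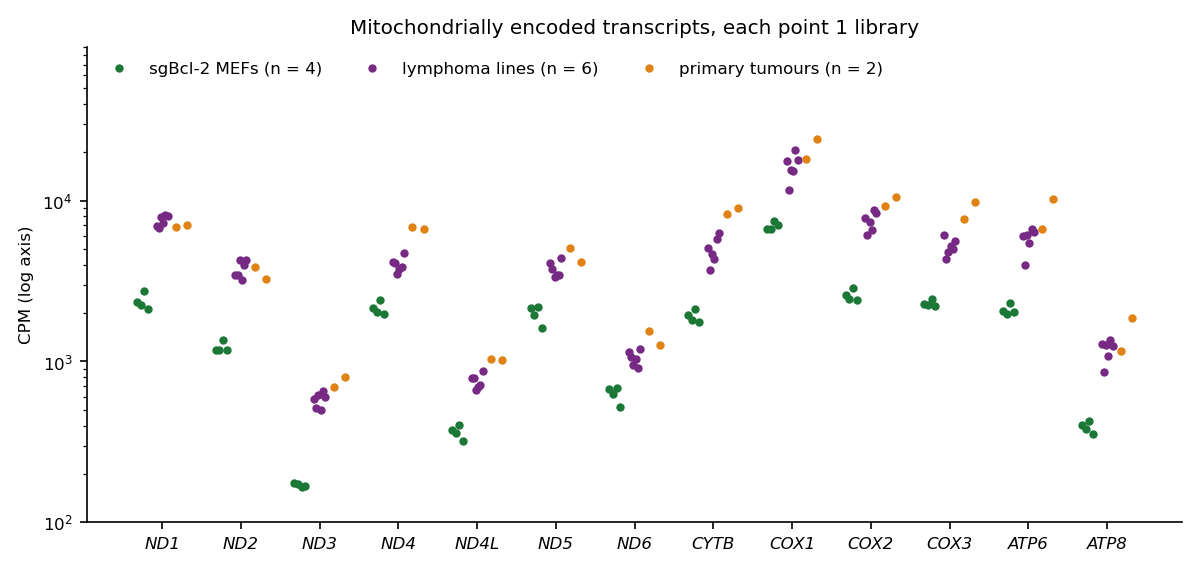
CPM on a log axis of each mitochondrially encoded transcript in sg*Bcl-2* MEFs (n = 4), lymphoma lines (n = 6) and primary tumours (n = 2), 1 point per library. For each of the 13 transcripts all lymphoma points lie above all MEF points, as for *ND3* at 501 to 659 CPM against 166 to 176 CPM.

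Among the nuclear members, 49 of 76 tested rose and 8 fell. Of the 7 core subunits of complex I, most of which carry its flavin or iron-sulphur clusters, 6 were higher. *Ndufs1*, the largest of them, had 86.6, 82.6, 81.6 and 71.3 CPM in the MEFs and 159, 151, 209, 163, 281 and 201 CPM in the lines, with IgM-negative line 1 highest (1.06, SE 0.184, limma adjusted p = 0.000307). The 35 accessory subunits tested divided into 20 higher and 6 lower. *Ndufb5*, an accessory subunit of the membrane arm, had 37.1 ± 2.25 CPM (SD, n = 4) in MEFs and 98.9 ± 9.40 CPM (SD, n = 6) in lines (1.23, SE 0.0929, limma adjusted p = 3.85e-07). *Ndufv3*, an accessory subunit of the NADH-oxidising module, was among the 6 that fell: 78.5, 80.1, 85.5 and 80.1 CPM in the MEFs, 31.8 to 49.4 CPM in the lines with a median of 42.6 (-1.13, SE 0.123, limma adjusted p = 8.24e-06). *Ndufa13*, also called *Grim19*, fell by 0.49 log2, with overlapping groups (66.5 to 80.2 CPM and 53.2 to 69.6 CPM, limma adjusted p = 0.00104).

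The assembly factors, which help to build complex I and are not part of the finished enzyme, were higher for 6 of 8, with none lower. *Ndufaf4* (chromosome 4, 24898083 to 24905001) had 19.0, 18.0, 17.5 and 15.3 CPM in the MEFs and 92.0, 111, 68.3, 71.2, 181 and 98.4 CPM in the lines. All 6 lines lay above the MEFs, and IgM-negative line 1 was highest (2.31, SE 0.248, limma adjusted p = 7.17e-06). *Ndufaf6* had 4.36, 4.48, 3.35 and 3.17 CPM in the MEFs and 15.5, 15.5, 19.1, 19.3, 19.1 and 21.9 CPM in the lines (2.06, SE 0.175, limma adjusted p = 1.04e-06). In complex II 3 of 4 genes were higher. *Sdha*, the flavoprotein that oxidises succinate, had 182 ± 7.46 CPM (SD, n = 4) in MEFs and 368 ± 36.7 CPM (SD, n = 6) in lines (0.83, SE 0.0925, limma adjusted p = 1.00e-05). In complex III 5 of 7 tested genes were higher, among them *Uqcrc2*, a core protein, at 100 ± 6.07 CPM (SD, n = 4) and 288 ± 40.3 CPM (SD, n = 6) (1.33, SE 0.128, limma adjusted p = 2.92e-06).

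Complex IV showed 9 of 15 tested genes higher and 2 lower. *Cox5a* was nearly the same in all 6 lines, 175 to 183 CPM, against 84.3 to 96.6 CPM in the MEFs (0.79, SE 0.0606, limma adjusted p = 4.29e-07). The alternative subunits of this complex gave the largest differences. *Cox4i2* (chromosome 2, 152753916 to 152765039), the form of subunit 4 linked to lung and to low oxygen, had 37.5, 37.1, 37.0 and 42.1 CPM in sg*Bcl-2* MEFs and 0.0758 to 0.300 CPM in the lines, from 2 to 8 reads per library. The difference was -7.34 (SE 0.271, limma adjusted p = 1.04e-09), and it depends on the pseudocount, from -8.13 to -5.18 over the alternatives. *Cox4i1*, its common counterpart, was at 224 to 245 CPM and 261 to 334 CPM (0.18, SE 0.0948, limma adjusted p = 0.103). Per kilobase, *Cox4i2* made up 13.8% to 16.5% of the pair in sg*Bcl-2* MEFs and 0.0240% to 0.110% in the lines.

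*Ndufa4l2* (chromosome 10, 127509274 to 127517154), a paralogue of *Ndufa4* known as a hypoxia target, had 445, 440, 533 and 500 CPM in the sg*Bcl-2* MEFs. IgM-negative line 1 had 3.13 CPM and the other lines 0.0498 to 0.122 CPM (-10.73, SE 0.775, limma adjusted p = 2.65e-07, and -11.41 to -8.57 over the alternatives). *Ndufa4*, now counted with complex IV, went the other way, from 57.3 to 70.7 CPM in MEFs to 146 to 171 CPM in the lines (1.14, SE 0.0723, limma adjusted p = 8.97e-08). In the counts by role given here *Ndufa4* and *Ndufa4l2* are placed by name with the accessory subunits of complex I. *Cox6b2*, a form known from testis, had 9.12, 11.4, 15.1 and 9.30 CPM in the MEFs and 0.122, 0.487, 1.18 and 1.15 CPM in the IgM-positive lines, and it is listed at 0 in both IgM-negative lines (-5.11, SE 0.778, limma adjusted p = 0.000115). *Cox6a2*, the heart and muscle form of subunit 6a, was low everywhere but higher in the lines, at 1.22, 5.66, 5.76, 0.598, 3.36 and 8.62 CPM against 0.0404 to 0.300 CPM (3.72, SE 0.697, limma adjusted p = 0.000534). Summed striated muscle markers ran from 1.02 to 8.96 CPM in these lines and from 44.6 to 66.8 CPM in these MEFs, of which *Acta1*, skeletal actin, made up 43.1 to 63.5 CPM. Some other markers of the list were not lower in the lines, such as *Tnnt3* at 0.493 to 5.88 CPM against 0.429 to 0.753 CPM and *Ckm* at 0.0498 to 3.36 CPM against at most 0.0432 CPM, and their part in the values of *Cox6a2* was not tested. *Cox7a1* was not called (-0.43, limma adjusted p = 0.341), *Cox7b2* and *Cox8b* were at most 0.912 CPM in any library, and *Cox8c* had no read.

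**Figure D3:**
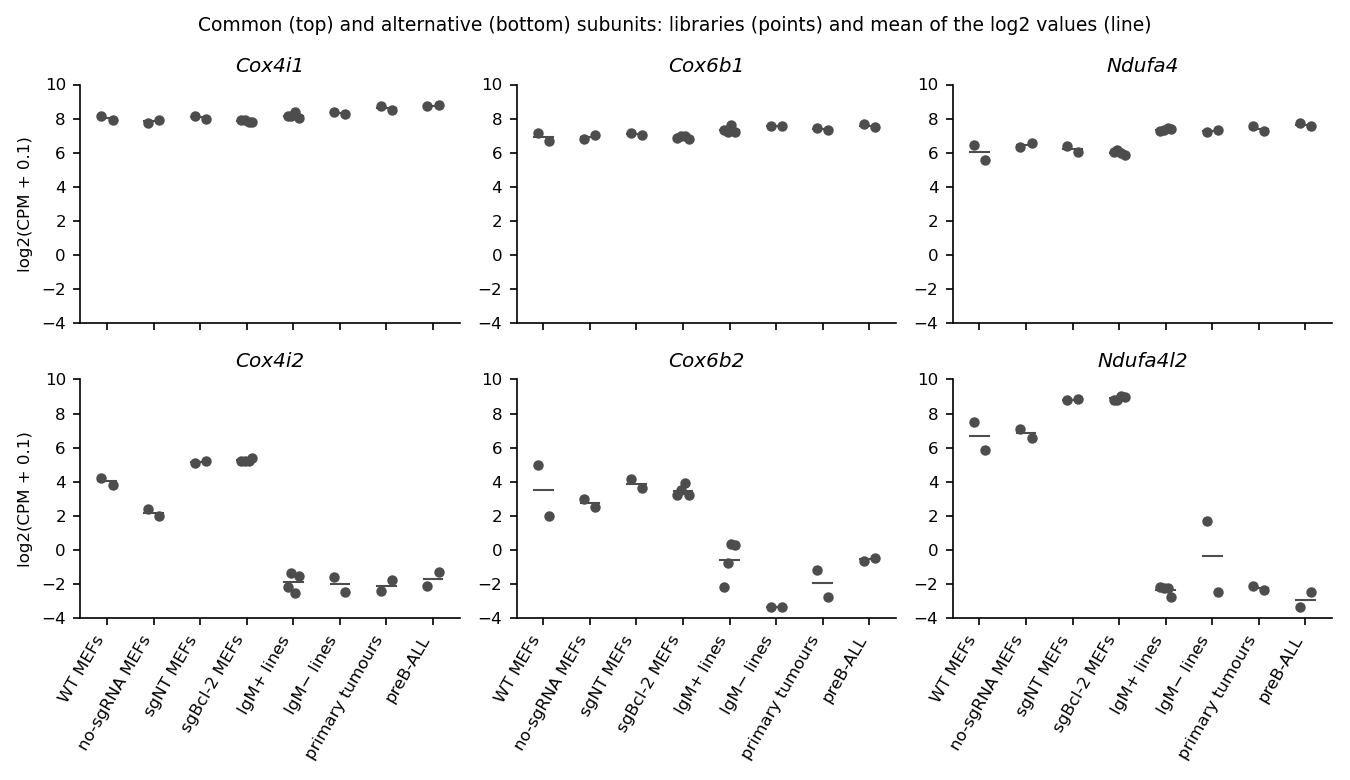
log2(CPM + 0.1) of 3 common subunits (top) and their alternative forms (bottom) in each library, with a line at the mean of the log2 values of each group. *Cox4i1*, *Cox6b1* and *Ndufa4* stay at or above 48.5 CPM in all 20 libraries, whereas *Cox4i2*, *Cox6b2* and *Ndufa4l2* have at least 3.88 CPM in every MEF library and at most 3.13 CPM in every B lineage library, the latter for *Ndufa4l2* in IgM-negative line 1.

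Other genes of the pathway were taken from fixed lists. In the same comparison 17 of 18 ATP synthase genes (the pseudogene *Atp5c1-ps* among them), *Cycs* (cytochrome c), *Cyc1* (cytochrome c1, a complex III subunit that the name rule does not take) and 13 of 14 genes of mitochondrial DNA expression were higher, and 14 of 27 assembly factors of complexes II to IV were higher and 3 lower. *Tfam*, which packages and transcribes mitochondrial DNA, had 23.8 ± 1.93 CPM (SD, n = 4) in MEFs and 97.2 ± 15.0 CPM (SD, n = 6) in lines (1.83, limma adjusted p = 5.38e-08). Among 10 regulators 8 were higher and 2 lower. The 8 include *Myc*, which the *Eµ-Myc* transgene drives, at 66.0 ± 9.94 CPM (SD, n = 4) in MEFs and 1756 ± 476 CPM (SD, n = 6) in lines. *Ppargc1b*, a coactivator of mitochondrial genes, had 0.621 ± 0.105 CPM (SD, n = 4) and 23.3 ± 5.80 CPM (SD, n = 6), while its relative *Ppargc1a* had 1.22 ± 0.132 CPM and 0.0335 ± 0.0305 CPM. *Nrf1* had 28.2 ± 2.02 CPM (SD, n = 4) in MEFs and 80.7 ± 8.95 CPM (SD, n = 6) in lines (1.33, limma adjusted p = 1.26e-07).

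The lymphoma lines were next compared with preB-ALL, the other B lineage tumour, using the same 6 lines as above. Of the 75 nuclear members tested, 16 rose and 11 fell, with a median of 0.15 against -0.07 for all genes. Over all 13961 genes tested, 43.4% were called, 20.9% higher and 22.5% lower, and the difference between the members' share and that of all genes was not tested. The split depended on the scaling: 11 higher and 16 lower with RLE factors, 12 and 13 without mitochondrial genes, and 7 and 21 with no scaling factor, where the median of all genes was -0.42. Without the second preB-ALL library 11 members were called, 5 higher and 6 lower. Of the 27 calls 8 were kept in all 18 alternatives (*Ndufb4b*, *Ndufb4c*, *Cox7c*, *Ndufa12* and *Ndufaf6* higher, *Ndufa3*, *Ndufs6b* and *Uqcrh-ps1* lower). Each fold below is therefore relative to the scaling used, and the groups differ in sequencing run and in fibroblast markers as given above, whose part in these differences was not tested.

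Complex I core subunits were higher for 3 of 7 and lower for 0 of 7. *Ndufs1* had 123 and 102 CPM in preB-ALL and the values given above in the lines, all higher (1.12, SE 0.269, limma adjusted p = 0.0105). That call was lost without the second preB-ALL library and when the tumours replaced the lines of their mice, with an adjusted p of up to 0.151. *Ndufs3* had 54.2 CPM in both preB-ALL libraries and 67.3 ± 8.11 CPM (SD, n = 6) in the lines (0.67, SE 0.153, limma adjusted p = 0.00839), a call lost with no scaling factor or without the second preB-ALL library (adjusted p up to 0.119). The assembly factors *Ndufaf4* and *Ndufaf6* were again higher in the lines. *Ndufaf4* had 40.2 and 29.6 CPM in preB-ALL, below all 6 lines (1.87, SE 0.363, limma adjusted p = 0.00392), and the call was lost without the second preB-ALL library (adjusted p = 0.0794). *Ndufaf6* had 10.5 and 7.94 CPM (1.35, SE 0.249, limma adjusted p = 0.00300).

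The accessory subunits split into 6 higher and 8 lower of 34. *Ndufa13* had 117 and 165 CPM in preB-ALL and 53.2 to 69.6 CPM in the lines (-0.86, SE 0.167, limma adjusted p = 0.00378), a call lost when the tumours replaced the lines of their mice (adjusted p = 0.0688). *Ndufa3* had 68.9 and 82.8 CPM in preB-ALL and 31.0 to 39.4 CPM in the lines (-0.69, SE 0.150, limma adjusted p = 0.00658). *Ndufa12* was higher in the lines, 13.5 to 17.7 CPM against 7.48 and 9.14 CPM (1.25, SE 0.207, limma adjusted p = 0.00172). The largest folds belonged to *Ndufb4b* (4.07 and 3.77 CPM in preB-ALL, 22.6 to 31.6 CPM in the lines) and *Ndufb4c* (2.67 and 2.65 CPM, 27.3 to 45.2 CPM), at 3.03 and 3.97 log2. These are close copies of *Ndufb4* on chromosomes 19 and 15, and the reads of such copies can be divided differently between runs. *Ndufb4* itself had 60 and 87 reads in preB-ALL and 74 to 200 reads in the lines, whose libraries were deeper. How reads were divided among the copies was not tested, and the values are uncertain. The same uncertainty holds for *Ndufs6b*, at 11.7 and 10.9 CPM in preB-ALL and 2.34 to 3.66 CPM in the lines (-1.56, limma adjusted p = 0.00571). It also holds for the pseudogene *Uqcrh-ps1*, at most 0.156 CPM in the lines and 1.54 and 0.882 CPM in preB-ALL (-2.89, limma adjusted p = 0.00186). *Ndufs6* had 634 and 533 reads in preB-ALL and 781 to 1199 reads in the lines, and *Uqcrh* is given below.

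Complex II was higher for 2 of 4 genes, *Sdha* and *Sdhb*, and complex III was lower for 3 of 8. The calls of *Sdha* and *Sdhb* were lost in 12 and 9 of 18 alternatives, among them RLE scaling, no scaling factor and leaving out the second preB-ALL library (adjusted p up to 0.499 and 0.720). *Uqcrh*, the hinge protein of complex III, had 242 and 323 CPM in preB-ALL and 119, 136, 148, 127, 118 and 129 CPM in the lines. All lines lay below both leukaemias (-0.75, SE 0.132, limma adjusted p = 0.00240), and this call too was lost when the tumours were used (adjusted p = 0.0709). In complex IV 3 of 14 tested genes were higher. *Cox7c* had 6.48 and 9.22 CPM in preB-ALL and 15.5, 22.2, 23.4, 19.9, 22.9 and 20.1 CPM in the lines (1.75, SE 0.237, limma adjusted p = 0.000590). *Cox6a1* had 189 and 193 CPM and 207 to 326 CPM (0.74, SE 0.150, limma adjusted p = 0.00469), and its call was lost with no scaling factor or without the second preB-ALL library (adjusted p up to 0.0903). *Cox4i2*, *Cox6b2* and *Ndufa4l2* were at most 0.641 CPM in the preB-ALL libraries.

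Of the other pathway lists, ATP synthase had 8 of 18 genes higher and 1 lower, the pseudogene *Atp5c1-ps*, assembly factors of complexes II to IV 11 and 2 of 27, mitochondrial DNA expression 6 and 1 of 14, and the regulators 6 and 1 of 10. The 6 include the transgene-driven *Myc*, at 347 ± 178 CPM (SD, n = 2) in preB-ALL. *Ppargc1a* was the regulator that was lower in the lines, with a mean of 7.11 ± 2.13 CPM (SD, n = 2) in preB-ALL (-5.46, limma adjusted p = 1.16e-05). *Cycs* had 6.30 ± 0.501 CPM (SD, n = 2) in preB-ALL, far below the 128 ± 10.2 CPM (SD, n = 6) of the lines (4.68, limma adjusted p = 4.81e-08). *Cycs* has processed copies in the genome, so that its value is uncertain for the reason given for *Ndufb4b*.

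**Figure D4:**
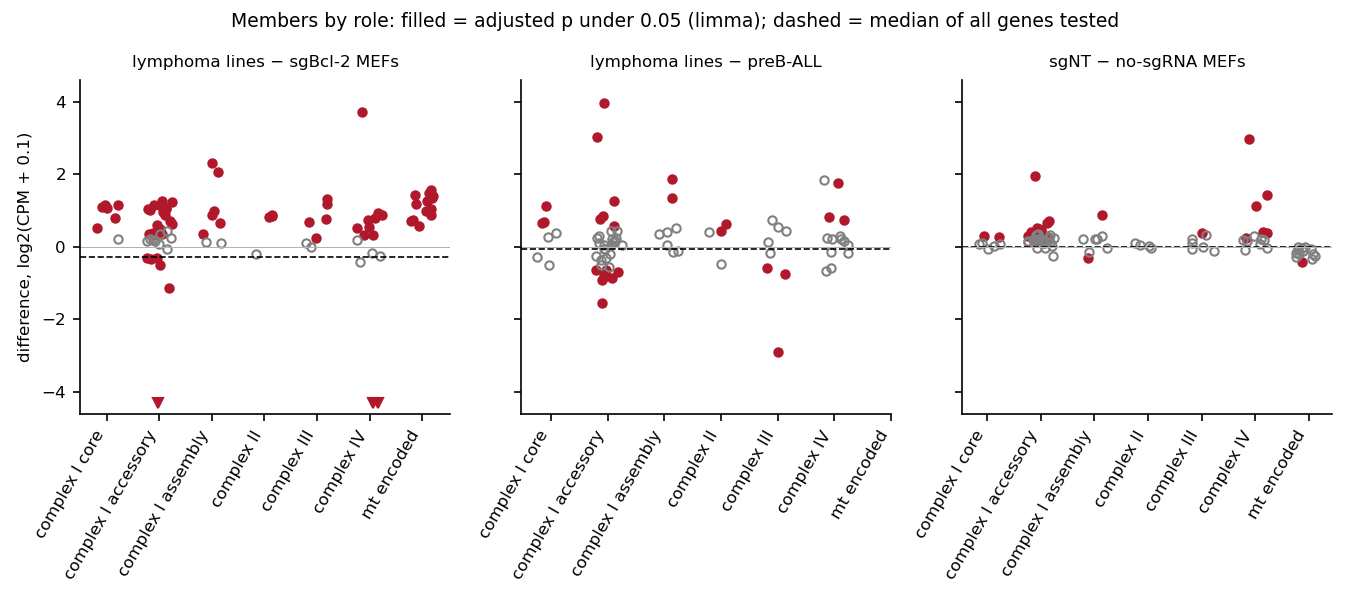
Log2 difference of each tested member, grouped by complex and role, in lymphoma lines against sg*Bcl-2* MEFs (left), lymphoma lines against preB-ALL (middle, no mitochondrially encoded genes) and sgNT against no-sgRNA MEFs (right); filled points have an adjusted p under 0.05 (limma), triangles mark values below the axis, and the dashed line is the median of all genes tested. On the left all 13 mitochondrially encoded genes lie between 0.57 and 1.57, and on the right 23 nuclear genes are filled above the line.

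Within the lymphoma lines, the IgM-negative lines were compared with the IgM-positive ones. No member of 87 was called by limma, by edgeR or by limma-voom, 4 had an unadjusted p under 0.05, and DESeq2 called 1. Over all 12386 genes 0.646% were called. The gene called by DESeq2 was *Cox6b2*, listed at 0 in both IgM-negative lines (adjusted p = 0.0368, against 0.331 with limma). Mitochondrially encoded genes had a median of 0.25 and took 6.98% of reads in both IgM-negative lines against 5.11% to 6.51% in the IgM-positive lines. *CYTB*, the mitochondrial subunit of complex III, had 5807 and 6253 CPM against 5055, 3695, 4634 and 4335 CPM, without overlap (0.51, SE 0.195, limma adjusted p = 0.405). *Ndufaf4* and *Ndufs1* were highest in IgM-negative line 1 and overlapped between the groups, with limma adjusted p of 0.438 and 0.418.

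The primary tumours were set against IgM-positive lines 1 and 2, which came from the same mice. The titles and the descriptions of the tumours give opposite mouse numbers, so the fit was not paired. No member of 86 was called by limma, edgeR or limma-voom, 9 had an unadjusted p under 0.05, and DESeq2 called 4 (*ND4*, *CYTB*, *Ndufa13* and *Ndufb7*). Over all 12719 genes 0.330% were called. *CYTB* had 8255 and 8970 CPM in the tumours and 5055 and 3695 CPM in the lines (0.94, limma adjusted p = 0.191). *Ndufa13* had 102 and 82.9 CPM in the tumours and 53.2 and 56.3 CPM in the lines (0.70, SE 0.172, limma adjusted p = 0.105). *Ndufs1* was lower in the tumours, at 115 and 110 CPM against 159 and 151 CPM (-0.51, SE 0.147, limma adjusted p = 0.129). Pairing by the title numbers gave 4 calls (*Ndufa13*, *Ndufb7* and *Ndufb11* higher, *Ndufs1* lower), whereas limma with the description numbers gave 0. Summed T cell markers were 64.1 and 34.1 CPM in the tumours and 7.22 and 62.7 CPM in these lines. Of these sums *Lck* alone made up 62.2, 32.7, 7.14 and 62.2 CPM, and every other T cell marker had at most 0.613 CPM. Summed myeloid markers were 41.5 and 30.7 CPM in the tumours against 13.1 and 6.11 CPM. Summed B cell markers were 11125 and 12226 CPM in the tumours against 5023 and 5163 CPM, and of the 11 markers 8 were higher in both tumours than in both lines, 2 were lower and 1 overlapped. *Ms4a1*, the gene of CD20, had 529 and 799 CPM against 4.06 and 7.46 CPM, whereas *Vpreb1* had 13.0 and 0.399 CPM against 43.2 and 195 CPM and *Ebf1* 41.6 and 85.7 CPM against 114 and 107 CPM. Their part in these differences was not tested.

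In MEFs, sg*Bcl-2* was compared with sgNT to see what accompanies activation of *Bcl-2*. Of 88 members tested 3 fell and 0 rose, all 3 close to the threshold, while over all 14676 genes 10.8% were called. *Ndufb6*, an accessory subunit of complex I, had 38.6, 42.7, 38.5 and 36.6 CPM with sg*Bcl-2* and 54.0 and 47.9 CPM with sgNT (-0.29, SE 0.0784, limma adjusted p = 0.0494). *Uqcrh* had 100.2, 100.2, 95.9 and 90.3 CPM and 127 and 115 CPM (-0.23, SE 0.0626, limma adjusted p = 0.0499). The pseudogene *Ndufs5-ps* had 16.8 to 21.4 CPM and 30.4 and 25.8 CPM (-0.41, SE 0.108, limma adjusted p = 0.0474), and its reads may belong to *Ndufs5*. Leaving out 1 library at a time left 0 to 2 calls, with 0 without the first sg*Bcl-2* library or without either sgNT library. Without the third sg*Bcl-2* library 1 other member was called and none of these 3. With the MEF line as a replicate block 8 members were called, 7 lower (*Ndufb10*, *Ndufs5-ps*, *Uqcrh*, *Cox6c*, *Ndufb6*, *Ndufa3* and *Ndufaf3*) and 1 higher (*ND3*). The 13 mitochondrially encoded genes had positive differences, 0.11 to 0.32 with a median of 0.23. None of them was called by limma, edgeR or limma-voom, and DESeq2 called 3 of them.

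The sgNT MEFs were compared with *dCas9a-SAM KI/+* MEFs that carry no sgRNA, and the sgNT libraries are those of the comparison before. Per the study's methods the sgRNA came by infection, so carrying an sgRNA and having been infected cannot be told apart. Of 88 members tested 23 rose and 2 fell. Over all 14655 genes 41.1% were called, 20.2% higher and 20.9% lower. The difference between the members' share and that of all genes was not tested. The medians were 0.18 for members and 0.00 for all genes. Nuclear members had a median of 0.21 and mitochondrially encoded members one of -0.18. Of 12 fibroblast markers 9 were higher in both sgNT libraries than in both no-sgRNA libraries, 1 was lower (*Fn1*, 8929 and 7533 CPM without an sgRNA and 4451 and 6034 CPM with sgNT) and 2 overlapped. Their sums overlapped, at 21303 and 18411 CPM and 20022 and 21656 CPM, whereas summed striated muscle markers were 113 and 140 CPM and 47.8 and 47.0 CPM. *Dcn* had 12.7 and 14.8 CPM without an sgRNA and 129 and 79.7 CPM with sgNT, and *Postn* 369 and 399 CPM and 1735 and 1534 CPM. The part of these cell type markers in the members' differences was not tested.

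The alternative subunits led the list. *Cox4i2* had 5.13 and 3.91 CPM with no sgRNA and 34.1 and 38.0 CPM with sgNT (2.96, SE 0.154, limma adjusted p = 1.81e-05). *Ndufa4l2* had 137.7 and 94.7 CPM and 438 and 461 CPM (1.96, SE 0.153, limma adjusted p = 9.62e-05). *Cox6b2* had 7.84 and 5.68 CPM and 17.8 and 12.2 CPM (1.12, SE 0.206, limma adjusted p = 0.00417), and *Cox7a1*, the muscle form of subunit 7a, had 0.474 and 0.602 CPM and 2.10 and 1.24 CPM (1.42, SE 0.340, limma adjusted p = 0.0129). In each of these 4 genes the libraries did not overlap. The call of *Cox7a1* was lost without the first sgNT or the first no-sgRNA library and with all MEF libraries in the fit (adjusted p up to 0.0862, difference 0.77 to 1.75 over 15 alternatives), and that of *Cox6b2* with all MEF libraries (adjusted p = 0.470). Per kilobase, *Cox4i2* made up 2.41% and 1.68% of its pair with *Cox4i1* without an sgRNA and 11.1% and 13.6% with sgNT, and *Ndufa4l2* 52.4% and 39.2% of its pair with *Ndufa4* and 77.4% and 81.8%. *Cox4i1* (0.22, limma adjusted p = 0.0610) and *Ndufa4* (-0.26, limma adjusted p = 0.0950) were not called.

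By role, 2 of 7 core subunits, 13 of 35 accessory subunits and 1 of 8 assembly factors of complex I, 1 of 7 complex III genes and 6 of 14 complex IV genes were higher. None of the 4 complex II genes was called. *Ndufv3* had 48.4 and 50.9 CPM and 76.9 and 80.7 CPM (0.65, SE 0.0763, limma adjusted p = 0.000553), *Ndufaf3*, an assembly factor, 6.98 and 8.00 CPM and 14.5 and 13.3 CPM (0.87, SE 0.130, limma adjusted p = 0.00166), and *Ndufa1*, an X-linked accessory subunit, 25.3 and 26.7 CPM and 40.7 and 35.4 CPM (0.53, SE 0.0883, limma adjusted p = 0.00271). The 2 that fell were *CYTB*, from 2105 and 2367 CPM to 1742 and 1618 CPM (-0.43, SE 0.115, limma adjusted p = 0.0205), and *Ndufaf4*, from 23.9 and 24.1 CPM to 19.1 and 20.0 CPM (-0.31, SE 0.0940, limma adjusted p = 0.0310). Without the first sgNT library 12 members were called and without the first no-sgRNA library 9, and with all 10 MEF libraries in the fit 3 were called (*Cox4i2*, *Ndufaf3* and *Ndufa4l2*). *CYTB* was not called when any 1 of the 4 libraries was left out. The call of *Ndufaf4* was lost in 6 of 15 alternatives, namely DESeq2, the replicate block, all MEF libraries in the fit, and without the first sgNT or either no-sgRNA library (adjusted p up to 0.286). Of 9 regulators tested 1 was higher and 2 lower. *Ppargc1a* had 0.904 ± 0.0596 CPM (SD, n = 2) without an sgRNA and 2.42 ± 0.374 CPM (SD, n = 2) with sgNT (1.30, limma adjusted p = 0.00552), while *Gabpa* (-0.21, limma adjusted p = 0.0365) and *Pprc1* (-0.28, limma adjusted p = 0.0373) were lower. In mitochondrial DNA expression 0 of 14 genes were higher and 2 lower (*Polg* and *Lrpprc*), in ATP synthase 1 of 17 was higher and 1 lower, and of 27 assembly factors of complexes II to IV 10 were higher and 2 lower.

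WT MEFs were compared with sgNT MEFs and with no-sgRNA MEFs, the latter to see what the cassette does without an sgRNA. The sgNT MEFs also carry an sgRNA brought in by infection, so the comparison with them does not show the cassette alone. No member of 88 was called in either comparison, and over all genes 0% were called (14560 and 14546 tested). For sgNT 2 members had an unadjusted p under 0.05, and edgeR, DESeq2 and limma-voom called 0. For no-sgRNA 3 members had an unadjusted p under 0.05, edgeR and limma-voom called 0 and DESeq2 called 1. Both comparisons changed with whichever WT library was left out, and the second WT library stood apart as given above. Without it 3 members were called for sgNT (*Ndufa4l2* and *Cox4i2* higher, *Cox6b2* lower) and 28, all lower, for no-sgRNA, where over all genes 11.2% and 31.8% were called (15.0% lower for no-sgRNA). Without the first WT library, so that the second stood alone, 52 and 42 members were called, and 53.4% and 55.1% of all genes. The single WT library in these fits is assumed to vary like the other group.

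The WT libraries themselves differed in many members. *Cox4i2* had 18.7 and 14.0 CPM, between the no-sgRNA and the sgNT libraries. *Ndufa4l2* had 184 and 59.3 CPM, and *Cox6b2* 32.1 and 3.88 CPM, the highest and the lowest of the 10 MEF libraries. In the second WT library *COX1* made up 45.6% of mitochondrial protein-gene reads against 25.2% to 29.7% in the other 9 MEF libraries, while *CYTB*, at 962 CPM, and *ND6*, at 268 CPM, were the lowest of all MEF libraries. *Cox6a2* (5.24 CPM) and *Cox8b* (0.912 CPM), both muscle forms, were the highest among MEFs in the same library. The muscle form *Cox7a1* was not, at 1.33 CPM against 0.474 to 2.34 CPM in the other MEFs. In this library *Myh7*, a muscle myosin, had 65.8 CPM against at most 0.688 CPM in the other MEFs.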

How the data were processed

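RNA-seq was analysed for 20 mouse libraries in 8 groups, taken from the labels. Per the study's methods and the submitters' processing notes, the authors aligned reads to GRCm38 (mm10) with Rsubread and normalised them with edgeR, and deposited 1 table of CPM (counts per 1000000 reads on genes) without filtering. Whether reads were counted by strand is not given in the sources used here. The CPM steps gave whole reads for 100% of values (tolerance 0.01 reads), from 12474885 to 26678417 reads per library with a median of 23229458. Of 25869 identifiers, 25242 matched RefSeq (GRCm38.p6).

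Genes were kept with filterByExpr on the recovered reads, CPM were scaled with TMM, and log2(CPM + 0.1) was tested with limma (trend) on the groups compared only, with Benjamini-Hochberg adjustment over all genes tested and a threshold of 0.05. Folds therefore understate changes of low genes. R 4.3.3, limma 3.58.1, edgeR 4.0.16, DESeq2 1.42.0, Python 3.11.15 and matplotlib 3.10.9 were used, and scripts were tested on simulated data. On the recovered counts edgeR's quasi-likelihood test called 26 members in lymphoma lines against preB-ALL, 71 against sg*Bcl-2* MEFs, 3 in sg*Bcl-2* against sgNT MEFs, 27 in sgNT against no-sgRNA MEFs and 0 in the other comparisons. DESeq2, limma-voom, other scaling, pseudocounts, filters and libraries were alternatives.

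In each comparison the text names every called member if there were at most 10. With more, it names those ranked 1 to 5 by adjusted p in each direction. To these come the mitochondrially encoded genes and the subunits with alternative forms; other members named were chosen after their values were seen. Members and lists were chosen with earlier results of these data known. MEF line numbers in the titles pair sgNT with sg*Bcl-2* libraries. Deviations of same-numbered libraries correlated at 0.326 (0.162 without X and Y genes) for that pair, at -0.0473 for no-sgRNA with sgNT and -0.134 for no-sgRNA with sg*Bcl-2*, and at 0.182 (0.203 without X and Y genes) for WT with sg*Bcl-2*, although the WT numbers belong to other embryos. The pairing therefore rests on the titles and not on these values. No replicates were duplicates of each other (chi-square per gene of at least 7.32). Lymphoma lines enter 4 of the 8 comparisons, the sgNT libraries 3, and the sg*Bcl-2*, no-sgRNA and WT MEFs 2 each, so those results are not independent. The values of 1 member are not reported here.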

Additional observations from a re-analysis of the deposited data

Results flagged for a closer look

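In 172 sets of member values (members with a mean of at least 1 CPM, in lymphoma lines and in sg*Bcl-2* MEFs) 14 had 1 library far from the others by Dixon's criterion, which by chance marks about 5% of sets. In the lymphoma lines IgM-positive line 3 was highest for *Ndufs8* (155.7 CPM, next 101.0), *Ndufv1* (223.4 CPM, next 163.1), *Ndufb8* (199.0 CPM, next 130.5) and *Cox8a* (406 CPM, next 260.9). IgM-positive line 2 was highest for *Ndufb4* (7.50 CPM, next 4.81), *Ndufb4c* (45.2 CPM, next 34.0) and *Cox6a1* (326.1 CPM, next 250.2). IgM-positive line 4 was lowest for *Cox7a1* (0.448 CPM, next 1.71).

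In the sg*Bcl-2* MEFs the second library of line 2 was lowest for *Ndufs8* (35.6 CPM, next 43.6) and *Ndufv1* (56.4 CPM, next 63.0) and highest for *Cox4i2* (42.1 CPM, next 37.5). The first library of line 2 was highest for *Ndufs6b* (1.53 CPM, next 1.20) and *ND2* (1361 CPM, next 1185). The first library of line 1 was highest for *Cox7a2* (13.6 CPM, next 11.3).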

How the results depend on the processing

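Of 736 alternative values of 41 named results, 684 kept their direction and side of the threshold, 52 lost the call and 0 reversed. Not every result named above is among the 41. *Ndufs3*, *Sdha* and *Sdhb* against preB-ALL, whose lost calls are given above, are not. The count against sg*Bcl-2* MEFs (70) stayed within 1.5 times in every alternative run. Against preB-ALL 27 members were called, 16 when the tumours replaced their lines, 15 at a threshold of 0.01 and 11 to 29 with 1 library left out, lowest without the second preB-ALL library. DESeq2 called 1 member between IgM classes, 4 in tumours, 5 in sg*Bcl-2* against sgNT MEFs and 1 in no-sgRNA against WT MEFs. In tumours the title pairing gave 4 and all IgM-positive lines gave 2.

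For sg*Bcl-2* against sgNT MEFs the 3 calls became 1 with limma-voom, 1 with RLE scaling, 10 with no scaling factor, 0 with no filter, 0 with all MEF libraries, 0 at a threshold of 0.01 and 0 to 2 with 1 library left out. The replicate block by MEF line gave 8, and 7 with the libraries of each line summed. For sgNT against no-sgRNA MEFs the 25 calls became 3 with all MEF libraries, 11 at 0.01, 19 with the replicate block and 9 to 25 with 1 library left out. Against WT, leaving out 1 library gave 0 to 52 calls for sgNT and 0 to 42 for no-sgRNA, which all MEF libraries in the fit put at 2. The block changed no other count by over 1.5 times. The cause of these differences was not tested.

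Groups of 2 libraries limit most MEF results, and the preB-ALL libraries were shallowest.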
